A study of Mus musculus with 11 samples.

Results

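The comparison described here sets wild-type CD8 effector T cells against wild-type CD4 effector T cells raised in the same Th1 culture. It rests on 5 of the 11 mouse arrays of the series, chosen by their labels: 2 arrays of sorted CD4-CD8+ cells, called CD8 cells, and 3 arrays of sorted CD4+CD8- cells, called CD4 cells. Naive spleen T cells with low CD44, of either subset, received stimulating antibodies, 1 µg/ml against CD3 and 3 µg/ml against CD28. Irradiated C57BL/6 splenocytes (2500 rad) depleted of T cells served as antigen-presenting cells. The cytokines added were IL-12 at 10 ng/ml and IL-2 at 50 U/ml, and IL-4 was blocked by antibody at 10 µg/ml. Both groups were wild-type and were sorted again by CD4 and CD8 on day 4. The labels used here state neither strain nor age for the mice that gave the T cells. The other 6 arrays, 3 of CD4+CD8- and 3 of CD4+CD8+ cells, came from Thpokf/f CD2cre mice. In these, Cre under CD2 control, which is active in developing lymphocytes, deletes Thpok. They entered the fit to share its estimate of spread, but not the difference itself.

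CD4 and CD8 T cells leave the thymus with lasting programs set by opposing transcription factors. Thpok, encoded by Zbtb7b, holds the CD4 fate, and Runx3 supports the CD8 fate and represses Cd4 and Zbtb7b. After activation, CD8 cells become killers that store perforin and granzymes, while CD4 cells help other cells through surface ligands such as CD40L. IL-12 with blocked IL-4 drives T-bet and interferon-gamma in both lineages, so this culture gives both subsets the same polarising signals.

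Values are the deposited log2 intensities. An effect is the log2 difference CD8 minus CD4, given with its standard error (SE), where 1 unit is a 2-fold change. The adjusted p-values are those of limma over all 16673 probe sets, two-sided, with a threshold of 0.05, and "rose" and "fell" are used only of genes past it. Of all probe sets, 50 were higher in CD8 cells (0.300%) and 39 lower (0.234%), together 89 (0.534%). They carried 83 named genes, 46 higher and 37 lower, and 6 had no single gene name. The size of the difference among the 89 had a median of 1.72 and a minimum of 0.987. All 89 had no overlap between the CD8 and CD4 arrays, a state met by 23.0% of all probe sets, 11.2% with CD8 higher and 11.8% with CD8 lower. In 67 of the 89 the gap between the groups was at least 1 log2 unit. In bulk RNA, fewer cells that express a gene and less RNA per cell cannot be told apart.

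**Figure D1:**
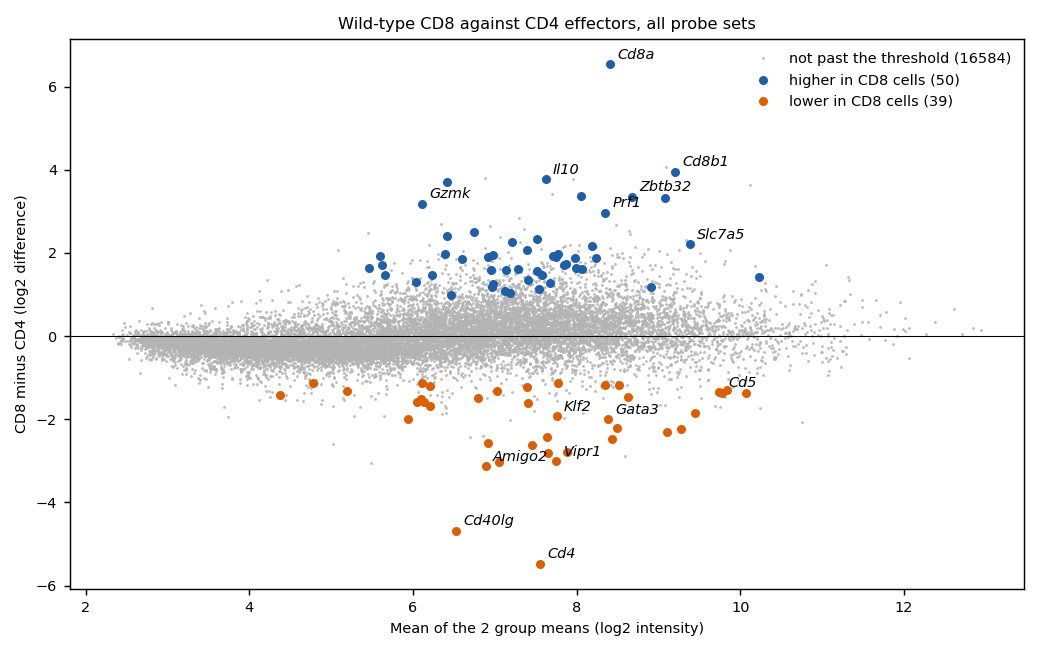
Each point is 1 of 16673 probe sets, with the mean of the group means on the horizontal axis and the CD8 minus CD4 difference on the vertical axis, both in log2 units. The 50 probe sets higher in CD8 cells and the 39 lower ones are coloured, and Cd8a and Cd4 lie farthest from 0.

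CD4 replicate 3 stood apart from the other wild-type arrays. The SD of its probe set values was 1.54, while the other 4 had 1.96 to 2.04, and its correlation across probe sets with the other CD4 arrays was 0.908 and 0.904, against 0.983 between those arrays and 0.969 for the CD8 pair. The 809 genes of olfactory, vomeronasal and trace amine receptors, which T cells are not known to use, had a median of 4.79 in it and 3.26 to 3.53 in the others. Without this array 69 probe sets were higher (0.414%) and 60 lower (0.360%), 129 in all (0.774%). Of the 89, 80 passed again, 9 did not, and 49 passed without it but not with it. The median difference over all probe sets was -0.14 with the array and -0.01 without it.

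The wild-type arrays also differed in transcripts of the Y chromosome, seen after the values were examined. Eif2s3y, a Y-linked translation factor gene, read 8.27, 3.22 and 3.22 in the CD4 arrays and 8.08 and 3.19 in the CD8 arrays. Kdm5d, a Y-linked histone demethylase gene, read 6.39, 3.43 and 3.66 in the CD4 arrays and 6.17 and 3.21 in the CD8 arrays. Both genes were high in replicate 1 of each group and low in the other 3 arrays. The labels state 2 distinct cell preparations without saying which arrays came from which, and the mice's sex is not given. With the Eif2s3y level as a covariate the counts were 67 higher and 58 lower, with 85 of the 89 kept. Of the genes described below that missed the threshold, 10 passed with this covariate, at adjusted p of 0.0184 to 0.0486: Asns, Scd1, Tnfsf8, Tnfrsf8, Ccl3, Ccr7, Gzma, Cd79b, Ecm1 and Lgmn. In a fit of the 5 wild-type arrays alone, 5 probe sets were higher and 4 lower, and with the Y-linked signal as a block 8 were higher and 5 lower. Within the arrays with Y-linked RNA (1 CD8, 1 CD4) and those without (1 CD8, 2 CD4), the pair differences of CD8 replicate 1 from CD4 replicate 1, and of CD8 replicate 2 from CD4 replicate 2 had median sizes of 1.54 and 1.82 over the 89, and their sign is fixed by the lack of overlap.

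**Figure D2:**
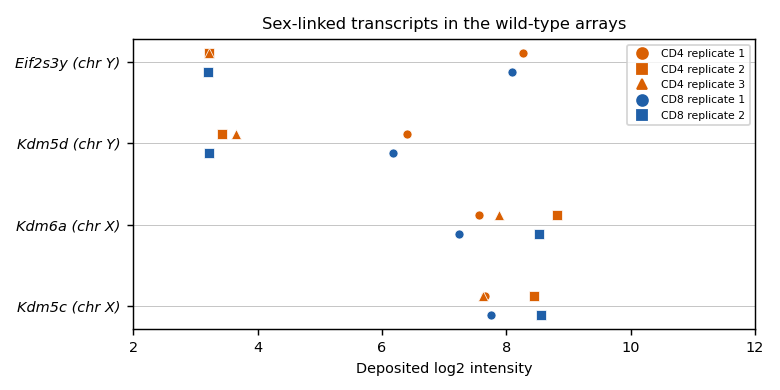
Points give the deposited log2 intensity of 2 Y-linked and 2 X-linked genes in each wild-type array, coloured by group and shaped by replicate. Eif2s3y and Kdm5d are high in replicate 1 of both groups, and Kdm6a and Kdm5c are highest in replicate 2 of both groups.

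The calls rested on few arrays. Without CD8 replicate 2 the count was 8 and without CD8 replicate 1 it was 44. Without CD4 replicate 2 it was 47 and without CD4 replicate 1 it was 125. Of the 89 probe sets, 7 passed in all 5 of these fits, and they were those of Cd8a, Cd8b1, Zbtb32, Cd4, Amigo2, Vipr1 and Slfn1. A gene that missed the threshold is therefore not shown to be alike in the groups.

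The sort markers checked the labels. Cd8a (probe set 6946920) read 4.49, 4.78 and 6.14 in the CD4 arrays and 11.78 and 11.56 in the CD8 arrays, a difference of 6.53 ± 0.46 (adjusted p = 0.000197). Cd8b1 (probe set 6946912), the second chain of the co-receptor, read 7.36, 7.22 and 7.10 in the CD4 arrays and 11.11 and 11.25 in the CD8 arrays, and Cd4 (probe set 6957141) read 10.87, 10.37 and 9.61 in the CD4 arrays and 5.20 and 4.43 in the CD8 arrays. These 3 genes encode the proteins the cells were sorted on, so the sort fixed their direction. The shared T cell gene Cd3e, a chain of the antigen receptor complex, read 11.66, 11.50 and 11.61 in the CD4 arrays and 11.64 and 11.98 in the CD8 arrays, with a difference of 0.22 ± 0.20 (adjusted p = 0.66).

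**Figure D3:**
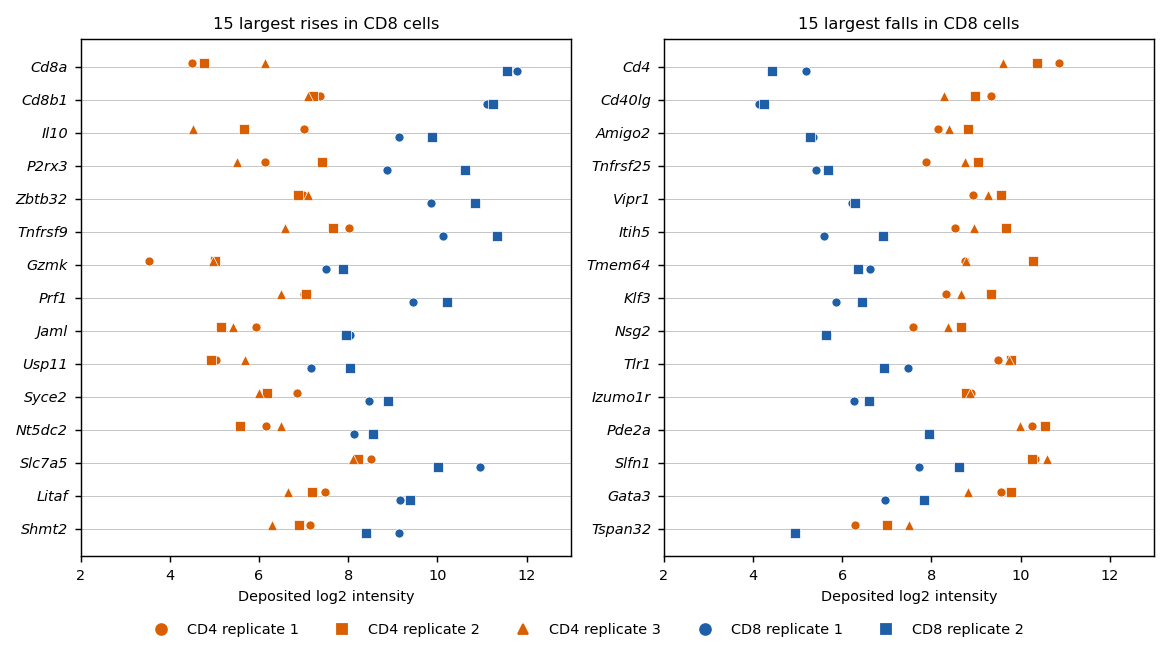
Every wild-type array is shown for the 15 largest named rises (left) and the 15 largest named falls (right), on the log2 intensity scale, with colour for the group and shape for the replicate. In every gene shown the 2 CD8 arrays lie on one side of all 3 CD4 arrays.

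Of the lineage factors, Gata3 fell in CD8 cells and the others did not pass. Gata3, a zinc finger factor needed for CD4 development and for Th2 responses, read 9.56, 9.79 and 8.82 in the CD4 arrays and 6.95 and 7.82 in the CD8 arrays, and it fell by 2.00 ± 0.33 (adjusted p = 0.0273). With 1 array left out, the call was lost for Gata3 without CD4 1, CD4 2, CD8 1 and CD8 2 (0.0548, 0.0778, 0.141 and 0.0607), where the values in brackets are the adjusted p in the order of the replicates. Zbtb7b read 8.70, 8.55 and 8.03 in the CD4 arrays and 6.89 and 7.23 in the CD8 arrays, with no overlap, a difference of -1.37 ± 0.28 and an adjusted p of 0.0653. Without CD4 replicate 3 it passed, at -1.57 ± 0.25 (adjusted p = 0.0284). Runx3 read 10.31, 10.31 and 9.58 in the CD4 arrays and 10.31 and 11.46 in the CD8 arrays. CD8 replicate 1 read the same as 2 of the CD4 arrays, and the difference was 0.82 ± 0.33 with a 95% interval of 0.08 to 1.56 (adjusted p = 0.364). Runx1, a family member that is abundant in naive T cells, differed by -0.70 ± 0.37 (adjusted p = 0.535), Zbtb7a, a relative of Thpok, by 0.28 ± 0.31 (adjusted p = 0.677) and Eomes, a T-box factor of killer cells, by 0.50 ± 0.31 (adjusted p = 0.605). For Zbtb7a the sign turned to -0.04 without CD4 replicate 3.

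Genes of the killing machinery had higher mean levels in CD8 cells. All 15 measured members of the cytotoxic list had a positive difference (37.5% of all probe sets) and 3 passed the threshold (0.300% of all were called higher). In only 7 of the 15 did both CD8 arrays lie above all CD4 arrays, a state met by 11.2% of all probe sets. The list median was 1.21 (0.80 without CD4 replicate 3 and 0.62 without CD8 replicate 2). Over all probe sets the median was -0.14. Over the 8336 brighter ones, with a mean above that of the median probe set, it was 0.13. In a fit of these brighter probe sets alone 98 were called higher. Prf1 (probe set 6768207), which encodes the pore-forming perforin, read 7.02, 7.07 and 6.49 in the CD4 arrays and 9.45 and 10.21 in the CD8 arrays. The groups were more than 2 log2 units apart, and Prf1 rose by 2.97 ± 0.31 (adjusted p = 0.00323). Gzmk (probe set 6816161), a granzyme protease, read 3.55, 5.01 and 4.97 in the CD4 arrays and 7.51 and 7.89 in the CD8 arrays and rose by 3.19 ± 0.38 (adjusted p = 0.00645). Tnfsf10, which encodes the death ligand TRAIL, read 7.21, 6.84 and 6.46 in the CD4 arrays and 8.52 and 8.09 in the CD8 arrays and rose by 1.47 ± 0.26 (adjusted p = 0.0371). Gzmb, the main granzyme of killer cells, was bright in both groups apart from CD4 replicate 3, reading 10.68, 9.40 and 4.83 in the CD4 arrays and 11.72 and 12.14 in the CD8 arrays. Its difference was 3.63 ± 1.23 (adjusted p = 0.254) and 1.89 ± 0.37 without that array (adjusted p = 0.0565). On leaving out 1 array, calls were lost (adjusted p in brackets) for Prf1 without CD8 2 (0.0561), Gzmk without CD8 2 (0.0692) and Tnfsf10 without CD4 2, CD8 1 and CD8 2 (0.0818, 0.164 and 0.133). Gzma, another granzyme gene, differed by 2.12 ± 0.51 (adjusted p = 0.105), and it passed with the Eif2s3y covariate (adjusted p = 0.0486) and without CD4 replicate 1 (adjusted p = 0.00937). Nkg7, a granule membrane protein gene, differed by 1.42 ± 0.29 (adjusted p = 0.0686) and passed without CD4 replicate 2 (adjusted p = 0.0425).

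Promoters of genes from both sides of the comparison are printed to show the sequence in which a Runx core word was sought, since Runx factors act in both lineages. The word was TGTGGT, read on both strands (ACCACA on the other), within 300 bases around each RefSeq start (250 before and 50 after, build GRCm38.p6), and it is in capitals where present. Prf1 (chr10:61297586-61297885, plus strand) and Usp11 (chrX:20703659-20703958, plus strand) rose in CD8 cells and hold the word, Gzmk (chr13:113180916-113181215, minus strand) rose and does not hold it, and Vipr1 (chr9:121642466-121642765, plus strand) fell and does not hold it.
Prf1: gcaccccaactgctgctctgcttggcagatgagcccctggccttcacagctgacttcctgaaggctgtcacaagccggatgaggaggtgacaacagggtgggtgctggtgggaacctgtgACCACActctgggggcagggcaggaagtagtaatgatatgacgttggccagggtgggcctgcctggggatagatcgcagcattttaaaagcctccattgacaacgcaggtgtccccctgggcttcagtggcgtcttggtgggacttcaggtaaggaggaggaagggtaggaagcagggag
Usp11: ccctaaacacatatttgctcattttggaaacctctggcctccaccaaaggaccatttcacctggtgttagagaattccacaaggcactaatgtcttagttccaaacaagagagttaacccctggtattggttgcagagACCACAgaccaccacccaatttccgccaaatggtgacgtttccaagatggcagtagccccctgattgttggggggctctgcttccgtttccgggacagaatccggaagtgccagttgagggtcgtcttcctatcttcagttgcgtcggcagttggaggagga
Gzmk: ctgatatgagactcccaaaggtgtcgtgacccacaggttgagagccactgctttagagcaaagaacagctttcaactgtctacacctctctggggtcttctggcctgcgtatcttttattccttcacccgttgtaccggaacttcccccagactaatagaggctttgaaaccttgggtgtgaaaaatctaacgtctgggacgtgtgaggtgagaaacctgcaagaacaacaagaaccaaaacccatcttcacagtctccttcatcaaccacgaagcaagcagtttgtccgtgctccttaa
Vipr1: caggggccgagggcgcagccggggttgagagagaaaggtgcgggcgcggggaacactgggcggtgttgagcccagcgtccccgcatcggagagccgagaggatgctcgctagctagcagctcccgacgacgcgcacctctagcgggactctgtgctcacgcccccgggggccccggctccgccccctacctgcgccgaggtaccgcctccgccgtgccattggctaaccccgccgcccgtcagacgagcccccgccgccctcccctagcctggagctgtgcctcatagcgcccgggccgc
The word begins 130 bases before the start in Prf1 and 112 bases before it in Usp11. It occurred in 11 of 53 promoters (20.8%) of the 38 higher genes with an entry, out of 46, and in 7 of 37 promoters (18.9%) of the 28 lower genes with an entry, out of 37. Over all 32851 promoters of the table the share was 16.8%, and over the 14907 promoters of genes on the array it was 13.4%. The GATA word AGATAA, on both strands, was in 0 of the 53 and 3 of the 37 (8.11%), against 11.2% of all promoters and 8.87% of those of array genes. Neither word contains the other, and a match is a description of the sequence, not a site.

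Among secreted factors, Il10 was the 1 member of 20 measured cytokines past the threshold, which 0.534% of all probe sets passed. Il10 (probe set 6753014), an anti-inflammatory cytokine also made by effector T cells, read 7.01, 5.66 and 4.52 in the CD4 arrays and 9.14 and 9.88 in the CD8 arrays. It was higher in both CD8 arrays than in any CD4 array, although the CD4 arrays themselves spread over more than 2 units, and it rose by 3.78 ± 0.62 (adjusted p = 0.0274). The difference of the replicate 1 pair was 2.13 and that of the replicate 2 pair was 4.22. The call of Il10 without CD4 2, CD8 1 and CD8 2 (0.0778, 0.0843 and 0.205) was lost (adjusted p in brackets). Ifng, the defining Th1 cytokine, read 10.48, 9.88 and 7.63 in the CD4 arrays and 11.02 and 11.02 in the CD8 arrays. CD4 replicate 3 lies far below the other CD4 arrays, and the difference of 1.69 ± 0.62 (adjusted p = 0.302) became 0.84 ± 0.23 without it (adjusted p = 0.145). No member of the 10 chemokines passed, and Ccl3 and Ccl5, which attract other leukocytes, differed by 2.58 ± 0.83 and 1.89 ± 0.71 (adjusted p = 0.228 and 0.316), and Ccl3 passed with the Eif2s3y covariate (adjusted p = 0.0246). Csf2, which encodes GM-CSF, was dim and differed by -1.35 ± 0.29 (adjusted p = 0.0759).

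Ligands and receptors of the TNF superfamily, through which T cells exchange help and costimulation, had single members past the threshold in each direction. Of 13 ligands 1 rose (Tnfsf10) and 1 fell (Cd40lg), and of 13 receptors 1 rose (Tnfrsf9) and 1 fell (Tnfrsf25). Over all probe sets 0.300% were called higher and 0.234% lower, and the counts are too small to describe the families. Cd40lg (probe set 7011413), the ligand that licenses B cells and dendritic cells, read 9.34, 8.99 and 8.28 in the CD4 arrays and 4.14 and 4.25 in the CD8 arrays and fell by 4.68 ± 0.51 (adjusted p = 0.00428), the largest fall after Cd4. Tnfsf8, the CD30 ligand, read 5.48, 7.91 and 7.66 in the CD4 arrays and 4.16 and 3.78 in the CD8 arrays, with no overlap but a low CD4 replicate 1. Its difference was -3.05 ± 0.63 (adjusted p = 0.0686), and it passed with the Eif2s3y covariate (adjusted p = 0.025) and without CD4 replicate 1 (adjusted p = 0.00369). Tnfrsf9 (probe set 6918900), the costimulatory receptor also called CD137, read 8.03, 7.66 and 6.59 in the CD4 arrays and 10.13 and 11.35 in the CD8 arrays and rose by 3.31 ± 0.42 (adjusted p = 0.00727). Tnfrsf25 (probe set 6919003), death receptor 3, which costimulates T cells, went the other way, reading 7.89, 9.05 and 8.76 in the CD4 arrays and 5.41 and 5.67 in the CD8 arrays, and fell by 3.02 ± 0.35 (adjusted p = 0.00618). With 1 array left out, calls were lost (adjusted p in brackets) for Cd40lg without CD8 2 (0.0561), Tnfrsf9 without CD8 2 (0.0808) and Tnfrsf25 without CD8 2 (0.0561). Tnfrsf8, which encodes CD30, differed by 2.26 ± 0.44 (adjusted p = 0.0582, 0.0427 with the Eif2s3y covariate and 0.0428 without CD4 replicate 3).

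Further genes of signalling and transcription rose in CD8 cells. Zbtb32 (probe set 6966298), a BTB zinc finger repressor that restrains lymphocyte proliferation, read 6.99, 6.89 and 7.11 in the CD4 arrays and 9.85 and 10.84 in the CD8 arrays. The 3 CD4 arrays lie within 0.22 of each other, and Zbtb32 rose by 3.35 ± 0.32 (adjusted p = 0.00161). It was the 1 call in a list of 20 other T cell transcription factors, which does not hold Gata3, Klf2 or Klf3. Of all probe sets 0.534% were called. Bach2, a repressor that holds back effector differentiation, and Ikzf2, which encodes Helios, differed by -1.46 ± 0.29 (adjusted p = 0.0636) and 1.61 ± 0.41 (adjusted p = 0.127). P2rx3 (probe set 6888340), an ATP-gated channel gene known from sensory neurons, read 6.15, 7.42 and 5.52 in the CD4 arrays and 8.87 and 10.61 in the CD8 arrays and rose by 3.38 ± 0.58 (adjusted p = 0.031). Both groups spread by over 1.5 units, and without CD4 replicate 3 the difference was 2.96 ± 0.57 (adjusted p = 0.0541). Jaml (probe set 6988711), a junctional adhesion molecule, read 5.93, 5.15 and 5.41 in the CD4 arrays and 8.04 and 7.95 in the CD8 arrays and rose by 2.50 ± 0.36 (adjusted p = 0.0156). Usp11 (probe set 7010345), a deubiquitinase gene on the X chromosome, read 5.03, 4.93 and 5.68 in the CD4 arrays and 7.17 and 8.04 in the CD8 arrays and rose by 2.40 ± 0.30 (adjusted p = 0.00727). The remaining large rises were Syce2, a synaptonemal complex gene of meiosis (2.33 ± 0.37), Nt5dc2 (2.27 ± 0.28) and Litaf (2.18 ± 0.34), with adjusted p of 0.0232, 0.00727 and 0.021. Calls lost on leaving out 1 array (adjusted p in brackets) were P2rx3 without CD4 1, CD4 3 and CD8 2 (0.0613, 0.0541 and 0.227), Jaml without CD4 2, CD8 1 and CD8 2 (0.0568, 0.0843 and 0.133), Usp11 without CD8 2 (0.0808), Syce2 without CD4 2, CD8 1 and CD8 2 (0.0778, 0.0812 and 0.202), Nt5dc2 without CD8 2 (0.0853) and Litaf without CD4 2, CD8 1 and CD8 2 (0.0619, 0.0843 and 0.195).

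Genes of biosynthesis and of cell division had positive differences almost throughout, with few single calls. All 21 measured DNA replication genes, 22 mitosis genes, 17 sterol and fatty acid genes and 16 aminoacyl-tRNA synthetase genes had a positive difference, and none passed (0.300% of all probe sets were called higher). The medians were 1.39, 1.45, 1.35 and 1.01, against -0.14 over all probe sets and 0.13 over the 8336 brighter ones. Without CD4 replicate 3 they were 0.98, 0.76, 1.07 and 0.79, against -0.01 over all probe sets, and 2 replication genes passed. The synthetase median was 0.59 without CD8 replicate 1. The mean level of the mitosis list was 7.05, 7.96 and 5.62 in the CD4 arrays and 8.29 and 8.14 in the CD8 arrays. CD4 replicate 2 lies just below the CD8 arrays there, while CD4 replicate 3 lies more than 2 units below them. The DNA replication list read 6.99, 6.82 and 5.63 in the CD4 arrays and 8.06 and 7.50 in the CD8 arrays and the synthetase list read 7.78, 7.81 and 7.08 in the CD4 arrays and 8.82 and 8.24 in the CD8 arrays, each with both CD8 arrays above all CD4 arrays. Glycolysis genes had a median of 0.85, which was 0.36 without CD4 replicate 3 and 0.55 without CD8 replicate 2, with 0 of 14 past the threshold.

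Amino acid supply was the 1 biosynthetic list with members past the threshold and with a mean that did not drop in CD4 replicate 3. Its mean level was 6.95, 6.92 and 6.94 in the CD4 arrays and 8.14 and 7.75 in the CD8 arrays, 17 of 18 members had a positive difference, and the median was 0.81 (0.75 without CD4 replicate 3). Without CD8 replicate 1 the median was 0.49, with 14 of 18 positive. With all arrays 3 of the 18 rose, against 0.300% of all probe sets. In the fit of the 8336 brighter probe sets 98 were called higher. Slc7a5 (probe set 6985900), the light chain of the large neutral amino acid transporter, read 8.52, 8.22 and 8.10 in the CD4 arrays and 10.95 and 10.02 in the CD8 arrays and rose by 2.20 ± 0.34 (adjusted p = 0.0201). Shmt2, the mitochondrial enzyme that moves serine carbon into folate metabolism, read 7.15, 6.90 and 6.30 in the CD4 arrays and 9.13 and 8.40 in the CD8 arrays and rose by 1.99 ± 0.31 (adjusted p = 0.0201). Psat1, an enzyme of serine synthesis, read 6.01, 6.44 and 6.97 in the CD4 arrays and 8.28 and 7.92 in the CD8 arrays and rose by 1.62 ± 0.27 (adjusted p = 0.0296). Asns, asparagine synthetase, had the largest difference of the list, reading 5.29, 4.49 and 5.16 in the CD4 arrays and 9.01 and 8.54 in the CD8 arrays. The groups were over 3 units apart, yet at 3.80 ± 0.80 its adjusted p was 0.0759. It passed in the limma fit of the 5 wild-type arrays alone (adjusted p = 0.0217) and there with the Y-linked signal as a block (adjusted p = 0.00756). With the Eif2s3y covariate it passed too (adjusted p = 0.0227). Scd1, a fatty acid desaturase gene, was similar in size at 3.77 ± 0.78 (adjusted p = 0.072, 0.0229 with the covariate and 0.0382 without CD4 replicate 1), from readings of 7.29, 5.85 and 5.06 in the CD4 arrays and 9.59 and 10.09 in the CD8 arrays. Calls lost on leaving out 1 array (adjusted p in brackets) were Slc7a5 without CD4 2, CD8 1 and CD8 2 (0.0655, 0.112 and 0.0561), Shmt2 without CD4 2, CD8 1 and CD8 2 (0.0573, 0.115 and 0.0607) and Psat1 without CD4 2, CD8 1 and CD8 2 (0.0778, 0.142 and 0.136).

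**Figure D4:**
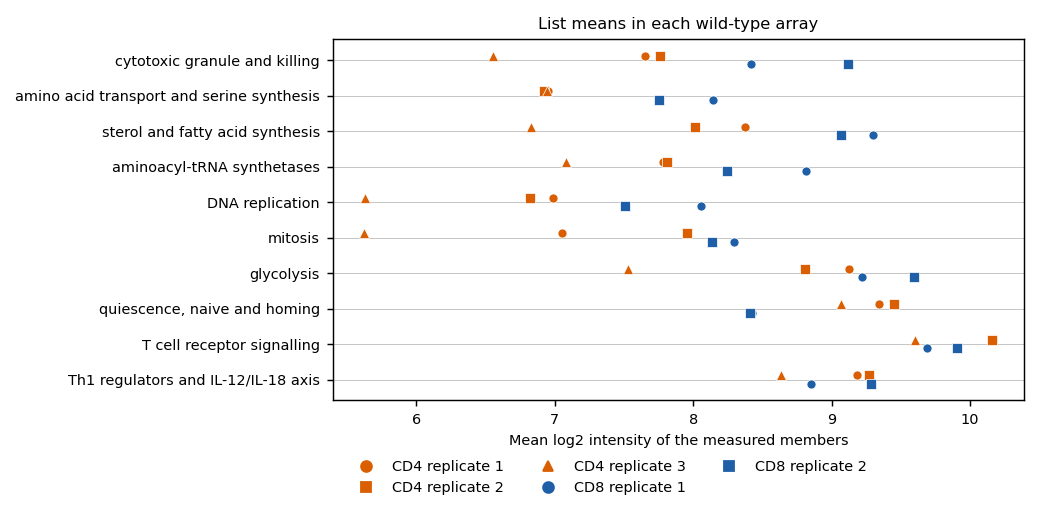
Points are the mean log2 intensity of the measured members of 10 gene lists in each wild-type array. CD4 replicate 3 is the lowest array in the lists of replication, mitosis, glycolysis, sterol synthesis, tRNA synthetases and killing, and in the amino acid list it lies with the other CD4 arrays.

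Genes lower in CD8 cells included regulators of quiescence and trafficking and several surface molecules. Of 16 quiescence and homing genes 14 had a negative difference (62.5% of all probe sets) and 3 passed (0.234% of all were called lower), with a median of -0.56 (-0.78 without CD4 replicate 3). Klf3 (probe set 6931217), a Krüppel-like repressor, read 8.32, 9.33 and 8.66 in the CD4 arrays and 5.85 and 6.43 in the CD8 arrays and fell by 2.63 ± 0.33 (adjusted p = 0.00727). Klf2, which controls expression of homing receptors, read 8.52, 9.35 and 8.28 in the CD4 arrays and 6.83 and 6.75 in the CD8 arrays and fell by 1.93 ± 0.33 (adjusted p = 0.0349). Tspan32, a tetraspanin gene of blood cells, read 6.28 to 7.50 in the CD4 arrays and 4.94 in both CD8 arrays and fell by 1.99 ± 0.30 (adjusted p = 0.0183). Ccr7 and S1pr1, receptors for lymph node entry and exit, differed by -1.68 ± 0.35 (adjusted p = 0.0686, 0.0394 with the covariate) and -1.47 ± 0.41 (adjusted p = 0.154). Both genes were bright in all 5 arrays. Calls lost on leaving out 1 array (adjusted p in brackets) were Klf3 without CD8 1 and CD8 2 (0.0699 and 0.0561), Klf2 without CD4 2, CD8 1 and CD8 2 (0.0655, 0.12 and 0.202) and Tspan32 without CD4 2, CD8 1 and CD8 2 (0.0611, 0.0843 and 0.149).

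Of 13 genes of the CD4 lineage and of help, 11 had a negative difference and 4 passed, against the same 62.5% and 0.234% of all probe sets: Cd4, Cd40lg, Gata3 and Cd5. The sort fixed the direction of Cd4, and the list was chosen with earlier results of these data known. These counts therefore describe the list and do not test it. Cd5, an inhibitory receptor of antigen receptor signalling, read 10.52, 10.44 and 10.39 in the CD4 arrays and 8.91 and 9.27 in the CD8 arrays. Its groups were tight, and it fell by 1.36 ± 0.18 (adjusted p = 0.00873). Amigo2 (probe set 6838303), an adhesion protein gene studied in neurons, read 8.15, 8.81 and 8.39 in the CD4 arrays and 5.36 and 5.29 in the CD8 arrays and fell by 3.13 ± 0.28 (adjusted p = 0.00103). Vipr1 (probe set 6992994), a receptor for vasoactive intestinal peptide, a neuropeptide that acts on lymphocytes, read 8.94, 9.55 and 9.28 in the CD4 arrays and 6.21 and 6.28 in the CD8 arrays and fell by 3.01 ± 0.30 (adjusted p = 0.00217). Izumo1r, which encodes the folate receptor FR4 of CD4 T cells, read 8.88, 8.79 and 8.86 in the CD4 arrays and 6.25 and 6.60 in the CD8 arrays and fell by 2.42 ± 0.31 (adjusted p = 0.00776). In Amigo2, Vipr1 and Izumo1r both groups were tight, with gaps of more than 2 units between them. Cd5 and Izumo1r lost their calls when CD8 1 or CD8 2 was left out, which leaves 1 CD8 array. The differences without CD8 1 and CD8 2 were -1.18 and -1.54 for Cd5 and -2.25 and -2.59 for Izumo1r.

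Slfn1, a Schlafen family gene tied to T cell quiescence, read 10.31, 10.26 and 10.59 in the CD4 arrays and 7.72 and 8.61 in the CD8 arrays and fell by 2.22 ± 0.27 (adjusted p = 0.00727). Tlr1, a receptor for bacterial lipoproteins, read 9.49, 9.77 and 9.75 in the CD4 arrays and 7.46 and 6.93 in the CD8 arrays and fell by 2.47 ± 0.28 (adjusted p = 0.00494). Pde2a, a phosphodiesterase that degrades cyclic nucleotides, read 10.26, 10.55 and 9.98 in the CD4 arrays and 7.95 and 7.95 in the CD8 arrays and fell by 2.32 ± 0.28 (adjusted p = 0.00645). The other large falls were Itih5 (-2.81 ± 0.45, adjusted p = 0.0232), Tmem64 (-2.79 ± 0.40, adjusted p = 0.0135) and the neuronal vesicle gene Nsg2 (-2.56 ± 0.33, adjusted p = 0.00727). Itih5 had the widest spread of these 3 in CD8 cells, at 5.58 and 6.91. Of these 6 genes Slfn1 kept its call in every fit with 1 array left out, and calls were lost (adjusted p in brackets) for Tlr1 without CD8 2 (0.0607), Pde2a without CD8 2 (0.0607), Itih5 without CD4 2, CD8 1 and CD8 2 (0.0709, 0.123 and 0.0561), Tmem64 without CD8 1 and CD8 2 (0.0702 and 0.149) and Nsg2 without CD8 1 and CD8 2 (0.055 and 0.0808).

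**Figure D5:**
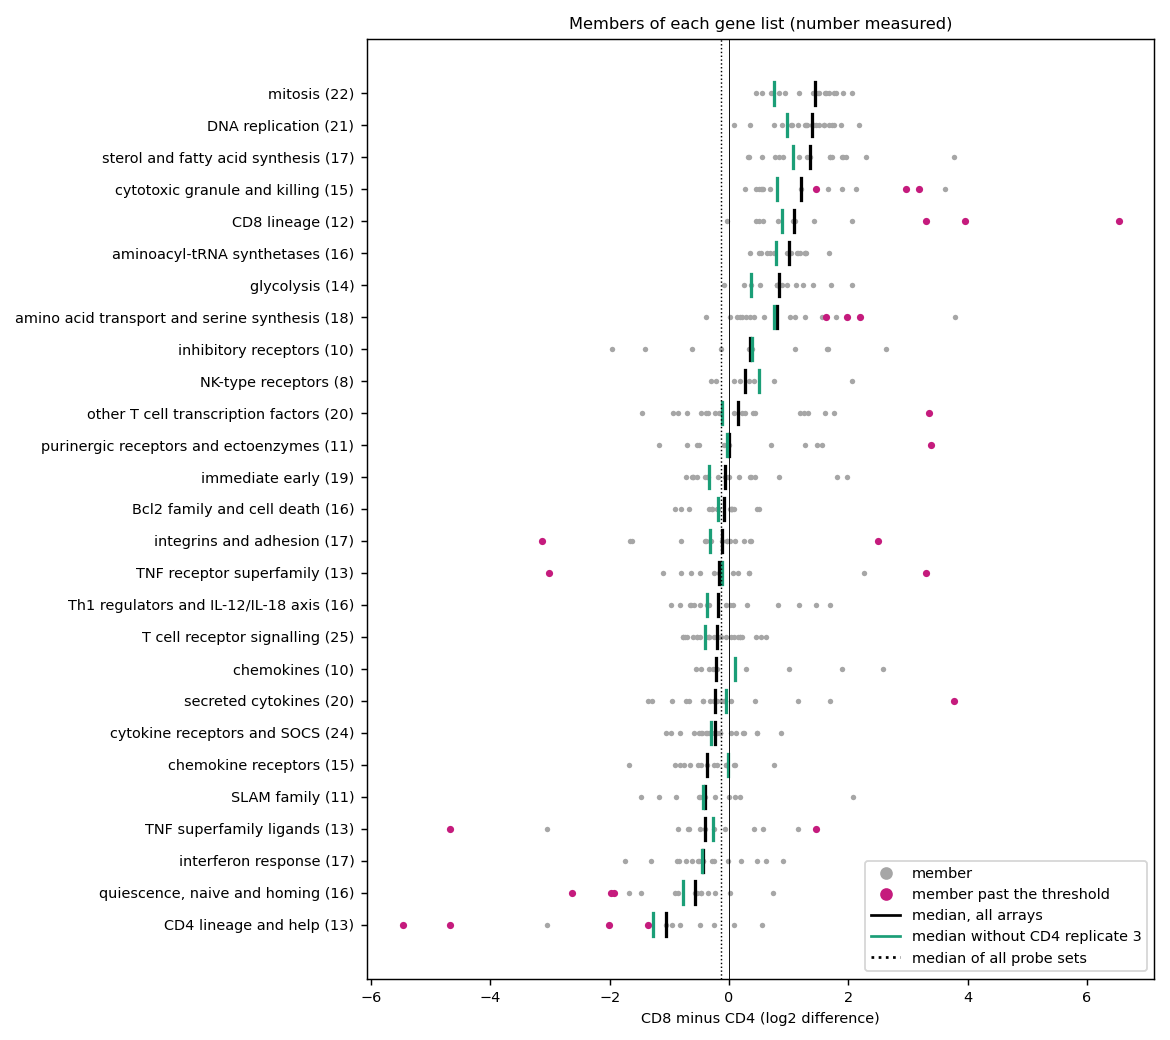
Each grey or coloured point is the CD8 minus CD4 log2 difference of 1 member of a gene list, with members past the threshold coloured. Bars mark the list median with all arrays (black) and without CD4 replicate 3 (green), and the dotted line marks the median of all probe sets, -0.14. The mitosis median moves from 1.45 to 0.76, while the amino acid median moves from 0.81 to 0.75.

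For the program that the culture drives, 0 of 16 Th1 regulators passed the threshold, against 0.534% of all probe sets. Tbx21, which encodes T-bet, read 9.43, 9.60 and 9.29 in the CD4 arrays and 9.15 and 9.77 in the CD8 arrays. The groups overlap, and the difference was 0.02 ± 0.25 with a 95% interval of -0.53 to 0.57, so a 2-fold difference lies outside it in this fit. After scaling to a common median and spread the Tbx21 difference was -0.52 ± 0.55, with a larger SE. Il12rb2, the inducible chain of the IL-12 receptor, read 10.93, 11.21 and 10.14 in the CD4 arrays and 10.82 and 11.30 in the CD8 arrays, with a difference of 0.30 ± 0.29 and an interval of -0.35 to 0.94. The sign of both turned negative without CD4 replicate 3 (-0.06 and -0.02). Il12rb1 and Irf8 differed by 1.18 ± 0.37 and 1.46 ± 0.40 (adjusted p = 0.211 and 0.157), with intervals of 0.37 to 1.98 and 0.56 to 2.35 that reach past 1. Over all probe sets the interval lay within 1 unit of 0 for 55.1%, and without CD4 replicate 3 for 72.8%.

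None of 25 antigen receptor signalling genes and 24 cytokine receptor and SOCS genes passed, against 0.534% of all probe sets. Cd6 and Dgka, which dampen T cell activation, differed by -0.77 ± 0.22 (adjusted p = 0.173) and -0.74 ± 0.19 (adjusted p = 0.137), both with no overlap. Il2ra, the high-affinity IL-2 receptor chain, differed by 0.87 ± 0.20 (adjusted p = 0.0903). Inhibitory receptors, 0 of 10 past the threshold, went in both directions. Lag3 read 9.02, 9.10 and 7.64 in the CD4 arrays and 10.32 and 10.15 in the CD8 arrays and differed by 1.65 ± 0.42 (adjusted p = 0.126), and Pdcd1, which encodes PD-1, differed by 1.65 ± 0.44 (adjusted p = 0.144). Btla read 8.07, 9.47 and 8.95 in the CD4 arrays and 6.61 and 7.11 in the CD8 arrays and differed by -1.97 ± 0.49 (adjusted p = 0.116). With the replicate number as a block in the limma fit it passed (adjusted p = 0.0211). Havcr2, which encodes TIM-3, read 6.07, 5.88 and 4.90 in the CD4 arrays and 6.66 and 9.85 in the CD8 arrays, so its difference of 2.64 ± 0.79 (adjusted p = 0.194) rests on CD8 replicate 2, and without CD8 replicate 1 it passed at 4.23 (adjusted p = 0.0474). None of 17 interferon response genes passed, and Gbp2 and Ifit2 differed by -1.74 ± 0.46 and -1.31 ± 0.34 (adjusted p = 0.143 and 0.134).

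A further 24 probe sets were higher and 25 lower past the threshold without CD4 replicate 3 and not with all arrays. In 40 of these 49 that array was the lowest of the CD4 arrays. The higher group included Pole and Tk1, which serve DNA synthesis. Pole read 6.82, 6.56 and 5.40 in the CD4 arrays and 8.36 and 7.92 in the CD8 arrays, at 1.45 ± 0.20 without the array (adjusted p = 0.0136, 0.0504 with it), and Tk1 read 5.73, 5.63 and 3.93 in the CD4 arrays and 7.42 and 7.15 in the CD8 arrays, at 1.60 ± 0.28 without it (adjusted p = 0.0384). Fads2, Dbi and Tmem97, genes of lipid handling, stood at 1.86 ± 0.22, 1.57 ± 0.29 and 1.45 ± 0.23 without the array (adjusted p = 0.00712, 0.0435 and 0.0284). Slamf7, a SLAM family receptor of killer cells, stood at 1.61 ± 0.27 (adjusted p = 0.0338). Ptprj and Coro2a completed the 10 largest, with Cd79b and Tnfrsf8, at 1.56 ± 0.29 and 1.46 ± 0.26 (adjusted p = 0.0464 and 0.0374). Pole, Fads2, Dbi, Tmem97, Slamf7 and Coro2a also passed without CD4 replicate 1 (adjusted p of 0.0155 to 0.0477).

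Among the lower genes of this kind, Ecm1, which encodes a secreted matrix protein, had the largest difference. Ecm1 read 11.27, 9.96 and 8.85 in the CD4 arrays and 7.19 and 7.11 in the CD8 arrays, at -3.47 ± 0.60 without the array (adjusted p = 0.0373, 0.0903 with it). The 2 CD8 arrays were within 0.1 of each other, and the 3 CD4 arrays spread over more than 2 units. Gpnmb, Ifi27l2a, Lgmn, Dst and Itga2 were lower by 2.16 to 2.49 units, with adjusted p of 0.00712, 0.00712, 0.0097, 0.00675 and 0.0234. Kctd12, Cd200r1 and Lyst, a regulator of lysosomal granules, stood at -1.65 ± 0.17, -1.57 ± 0.26 and -1.48 ± 0.23 (adjusted p = 0.00636, 0.0318 and 0.0207). The interferon-induced RNA sensor gene Ifih1 also passed then, at -0.99 (adjusted p = 0.0456, 0.094 with the array).

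Several defining markers of other cell types were low in all 5 arrays, while Cd79b, Cd68 and Klrb1f of the B cell, myeloid and NK cell lists read higher. Of 7 measured B cell markers, Ms4a1, which encodes CD20, read 3.44, 3.01 and 4.18 in the CD4 arrays and 2.96 and 3.20 in the CD8 arrays, near the receptor gene background, and Cd79a and Pax5 differed by -0.88 ± 0.38 and -0.56 ± 0.34. Cd79b, a chain of the B cell receptor, instead read 4.53, 4.62 and 5.81 in the CD4 arrays and 7.92 and 7.46 in the CD8 arrays, a difference of 2.71 ± 0.51 (adjusted p = 0.0513). It passed without CD4 replicate 3, at 3.12 ± 0.49 (adjusted p = 0.0239), while the other 6 markers did not follow it. Of 8 myeloid markers, Cd68, a lysosomal protein gene, read 7.37, 7.20 and 7.05 in the CD4 arrays and 8.38 and 8.47 in the CD8 arrays (difference 1.22 ± 0.37, adjusted p = 0.199), and Adgre1, which encodes the macrophage antigen F4/80, read 3.28, 3.22 and 4.07 in the CD4 arrays and 3.20 and 3.28 in the CD8 arrays. Ncr1, a defining receptor of NK cells, read 3.23, 3.11 and 3.52 in the CD4 arrays and 3.01 and 3.14 in the CD8 arrays. Klrb1f, an NK-type lectin receptor gene, read 4.41, 6.39 and 5.88 in the CD4 arrays and 4.26 and 7.70 in the CD8 arrays. None of the members of the B cell, myeloid, NK cell, gamma-delta T cell and erythroid lists passed with all arrays, against 0.534% of all probe sets.

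The Thpok-deficient arrays give a further setting for these genes, as levels only, since they share the fit and the wild-type arrays. Of the 50 probe sets higher in CD8 cells, the mean of Thpok-deficient CD4+CD8- cells was nearer to the CD8 mean than to the CD4 mean in 41, and that of CD4+CD8+ cells in 44. Of the 39 lower ones it was nearer in 19 and 26. These probe sets were selected by the gap between the same wild-type means, and the same count was not taken over all probe sets. The counts therefore describe levels and do not test an effect of Thpok loss. Zbtb32 had means of 6.99 ± 0.11 in CD4 cells (SD, n = 3) and 10.35 ± 0.70 in CD8 cells (SD, n = 2) and of 10.44 ± 0.33 in the CD4+CD8- and 10.60 ± 0.35 in the CD4+CD8+ Thpok-deficient cells (SD, n = 3 each), so both Thpok-deficient means lie at the CD8 level. Amigo2 averaged 8.45 ± 0.33 in CD4 cells (SD, n = 3) and 5.32 ± 0.05 in CD8 cells (SD, n = 2), with 5.77 ± 0.43 in the CD4+CD8- and 5.93 ± 0.18 in the CD4+CD8+ Thpok-deficient cells (SD, n = 3 each), also near the CD8 level. Vipr1 averaged 9.26 ± 0.31 in CD4 cells (SD, n = 3) and 6.25 ± 0.05 in CD8 cells (SD, n = 2), with 8.05 ± 0.28 in the CD4+CD8- and 7.55 ± 0.49 in the CD4+CD8+ Thpok-deficient cells (SD, n = 3 each), between the wild-type means. Cd5 averaged 10.45 ± 0.06 in CD4 cells (SD, n = 3) and 9.09 ± 0.25 in CD8 cells (SD, n = 2), with 10.20 ± 0.06 in the CD4+CD8- and 10.04 ± 0.08 in the CD4+CD8+ Thpok-deficient cells (SD, n = 3 each), close to the CD4 level.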

How the data were processed

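RNA was measured on Affymetrix arrays of 11 sorted samples, of which 5 form this comparison. The authors deposited log2 values, made with RMA and Partek on the mm9 build per the submitters' processing notes, which give no versions here. The series' design text names an exon array and the labels' protocols a 3' labelling kit, and this was not settled. RMA as published equalises array distributions, yet the arrays differ in spread, and this was left in the values. All 16673 deposited probe sets were tested, of which 14976 have 1 gene symbol, 1013 several and 684 none in a later platform annotation. Gene positions in mm9 are not given, and promoter sequences are from RefSeq GRCm38.p6.

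One linear model with 1 mean per group was fitted to all 11 arrays with limma 3.58.1 under R 4.3.3 (7 residual and 3.80 prior degrees of freedom), without a replicate block, and p-values were adjusted by Benjamini-Hochberg. The script was tested on simulated data with 200 changed probe sets. It recovered 0%, 79.5% and 98.5% of changes of 1, 2 and 3 log2 units. Of its calls 2.45% and 7.08% were false at 2 and 3 units. A change of 1 unit was missed there, so a share of false calls has no meaning at that size. The simulated noise was independent between arrays, with 1 spread per probe set. It held no array like CD4 replicate 3 and no shared preparations, so these rates may not carry over to the data. The deviations of same-numbered arrays from their group means correlated at r = 0.269 and 0.009. With 2 CD8 arrays these deviations mirror each other, so this check cannot decide whether the numbers mark pairs. The labels do not say that they do, and a fit with the number as a block is given below. The labels name biological replicates from 2 preparations, so p-values may measure partly technical spread, and the number of arrays limits the precision.

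The members and the 35 gene lists (27 by role and 8 of markers, 470 of 569 entries measured) were chosen with earlier results of these data known. Named genes are the 15 largest rises and falls past the threshold without overlap, the 10 largest each way that pass without CD4 replicate 3 but not with it, 15 set genes, and up to 5 members of each list. Predicted genes, pseudogenes, antigen receptor segments and olfactory receptors were not named, and the brightest probe set stood for a gene with several. Y-linked genes were chosen after their values were seen.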

Additional observations from a re-analysis of the deposited data

How the results depend on the processing

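The 89 calls (50 higher, 39 lower) became 268 (122, 146) without both arrays of narrow range, 240 (93, 147) after quantile normalization, 52 (33, 19) after median centring and 48 (22, 26) after scaling to a common median and spread. They became 150 (98, 52) of 8336 brighter probe sets, 9 (5, 4) with the 5 wild-type arrays alone, 13 (8, 5) with these and the Y-linked signal as a block, and 260 (160, 100) at an adjusted p under 0.1. Calls with CD8 higher were 56.2% of the 89, 38.75% after quantile normalization and 45.8% after scaling. Array weights gave 1989 (956, 1033), but the weights did not converge and CD4 replicate 1 received 51.9, so this count is no guide. The replicate block gave 116 (58, 58), with 79 of the 89 shared. Of the 34 called genes named here, 34 passed with that block, 33 after quantile normalization, 26 after median centring, 22 after scaling, 7 with the 5 arrays alone, 10 with the Y-linked block and 7 to 33 without 1 array. Of the 80 genes described here that missed the threshold, 11 passed with the replicate block, 19 after quantile normalization and 27 without both narrow arrays. Btla was among the 11, and Bach2 and Ifit2 passed in each of these fits. Leaving out 1 wild-type array gave 8 to 129 calls, 3 to 74 higher and 5 to 60 lower. The median difference of all probe sets was 0.047 after scaling and 0.13 among brighter probe sets, and -0.18 to -0.01 without 1 array. The share of intervals within 1 unit of 0 was 35.2% with 5 arrays, 84.0% with weights, 17.2% with the Y-linked block and 33.1% to 72.8% without 1 array. None of the 89 changed sign in any other fit, of which the brighter set tested 82. In the fits on unchanged values without a covariate or block, the lack of overlap fixes that sign. Signs turned for Zbtb7a (-0.037 without both narrow arrays, -0.16 with weights, -0.037 to 0.50 without 1 array), Tbx21 (-0.056 without both, -0.17 quantile, -0.52 scaled, -0.020 with the replicate block, -0.29 to 0.33 without 1 array), Il12rb2 (-0.016 without both, -0.43 scaled, -0.016 to 0.54 without 1 array), Il2ra (-0.044 scaled) and Cd3e (-0.085 quantile, -0.78 scaled). Ms4a1, Adgre1 and Ncr1 turned to 0.0084, 0.20 and 0.36 when scaled. The causes were not tested. The other settings, an intensity trend, a difference of at least 1 and the Eif2s3y covariate, kept the total within 1.5 times. The covariate and the Y-linked block were chosen after seeing the data.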

Other observations

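The 2 CD8 arrays differed from each other by at least 1 log2 unit in 963 probe sets (5.78%). CD4 replicates 1 and 2 did so in 342 (2.05%), and CD4 replicate 3 did so from these in 3501 (21.0%) and 4462 (26.8%). The genes below were chosen after their values were seen, as the 10 largest each way, and no test applies to a pair of single arrays. Higher in CD8 replicate 2 were Klrb1f, an NK-type lectin receptor gene (4.26 and 7.70 in CD8 replicates 1 and 2), Havcr2 (6.66 and 9.85) and Sema6d, a semaphorin gene (4.72 and 7.87). Serpinb9 and Serpinb6b, inhibitors of granule proteases, read 6.41 and 9.46, and 8.56 and 11.17. Higher in CD8 replicate 1 were Ptger1, a prostaglandin E2 receptor gene (9.48 and 5.63), Orm2, an acute phase protein gene (8.68 and 5.64), and Nasp, a histone chaperone gene (8.76 and 6.22). In CD4 replicates 1 and 2 Ptger1 read 9.23 and 8.77, so CD8 replicate 2 alone was low among these 4 arrays, while CD4 replicate 3 read 7.23.

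St6galnac2, a sialyltransferase gene on chromosome 11, followed the Y-linked genes across the wild-type arrays. It read 9.64, 5.61 and 6.82 in CD4 replicates 1 to 3 and 8.86 and 5.82 in CD8 replicates 1 and 2, and its CD8 minus CD4 difference was -0.02 (limma adjusted p = 0.994). The X-linked genes Kdm6a and Kdm5c, which escape X inactivation, read 8.81 and 8.44 in CD4 replicate 2 and 7.55 and 7.66 in CD4 replicate 1. In CD8 replicate 2 they read 8.52 and 8.55, and in CD8 replicate 1 they read 7.23 and 7.75. CD4 replicate 3, without Y-linked RNA, read 7.88 and 7.63, nearer to replicate 1. Eif2s3y in the Thpok-deficient CD4+CD8- arrays was 6.78, 3.06 and 8.11, and in the CD4+CD8+ arrays 7.77, 3.01 and 4.43, so some arrays lie between the high and low levels. Which arrays shared a preparation was not tested beyond these readings.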
